A study of Mus musculus with 6 samples.

Results

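The genes described here encode the proteins of the cytosolic ribosome, and they were read from lung tissue arrays of 6 mice of the outbred strain CD1, aged 10 weeks. The 3 intact mice had a sham procedure, which the labels do not describe further, and the 3 preconditioned mice had undergone low-pressure mechanical ventilation lasting 90 minutes, 1 week before the lung was taken. Each mouse gave 100 ng of total RNA to its own array, and the labels call the arrays of a group biological replicates. A gene was a member when a probe set was annotated to its symbol alone and the symbol was that of a numbered large subunit (Rpl) or small subunit (Rps) protein, or was Rplp0, Rplp1, Rplp2 or Rpsa, with pseudogene symbols ending in -ps left out. This gave 64 of the 22180 measured genes, 40 of the large and 24 of the small subunit. RefSeq's gene table (GRCm38.p6) lists 81 protein-coding genes with such symbols. Of these, 62 were members, 12 had symbols only on probe sets shared with other symbols, and 7 were not analysed here. The other 2 members, Rpl6l and Rps4l, are pseudogenes in that table.

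A ribosome joins a small subunit, which reads the mRNA, to a large subunit, which forms the peptide bond, and each protein is built into the particle in a fixed place. Most mRNAs of these proteins begin with a run of pyrimidines, the TOP element, through which the kinase complex mTORC1 controls their translation. Several of the genes hold small nucleolar RNAs in their introns, which guide the modification of ribosomal RNA. Because these genes also have many processed pseudogene copies with nearly the same sequence, signal from a gene and its copies cannot be told apart on an array.

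Values are log2 RMA values, 1 unit being a doubling of array signal, and differences are preconditioned minus intact. A value reflects the brightness of a probe set as well as the amount of its mRNA, so it is not compared between genes as an amount. The array medians lay between 5.32 and 5.40. Neutrophil markers were lower in preconditioned lungs (5 of 5, averages of 6.41 to 8.24 in intact and 6.00 to 6.17 in preconditioned mice), as were 5 of 5 mesothelial ones (7.93 to 8.29 and 6.80 to 7.52) and the 4 measured ones of alveolar macrophages (7.78 to 8.57 and 7.33 to 7.54), and their part in the values below was not tested. Markers of lung tissue were bright in both groups: averaged over 5 alveolar type 2 markers, the arrays lay between 11.47 and 11.96 in intact and 11.29 and 11.52 in preconditioned mice, and 3 club cell markers averaged 12.42 to 12.59 and 12.32 to 12.80. Type 2 markers were lower in preconditioned lungs in 5 of 5 (median -0.28), type 1 markers in 4 of 5 (-0.30; averages of 9.70 to 10.04 and 9.49 to 9.80) and endothelial markers in 4 of 4 (-0.23; 10.53 to 10.72 and 10.06 to 10.56). Of the red cell markers 1 of 5 was measured, Slc4a1, at -0.67 without overlap. The part of these cell types in the ribosomal values was not tested either. In such tissue samples, fewer cells of a type and less RNA per cell cannot be told apart. Intact replicate 1 stood apart from the other intact mice in the ribosomal protein genes. Its value was below both of theirs in 43 of the 64 members, or 67.2%, against 37.5% of all genes.

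The ribosomal protein genes had a median difference between preconditioned and intact lungs close to that of all genes. None of the 64 members passed an adjusted p of 0.05 in limma with Benjamini-Hochberg adjustment over all genes, a threshold that 0.0947% of all genes passed. The median difference was 0.02 for the large subunit and 0.03 for the small subunit, beside 0.01 for all 22180 genes. Of the large subunit genes 18 were lower and 22 higher in preconditioned lungs, and of the small subunit genes 10 were lower and 14 higher. The extremes were Rps27 at -0.64 and Rps20 at 0.98, both of the small subunit. In the large subunit the differences ran from -0.52 for Rpl29 to 0.39 for Rpl37.

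**Figure D1:**
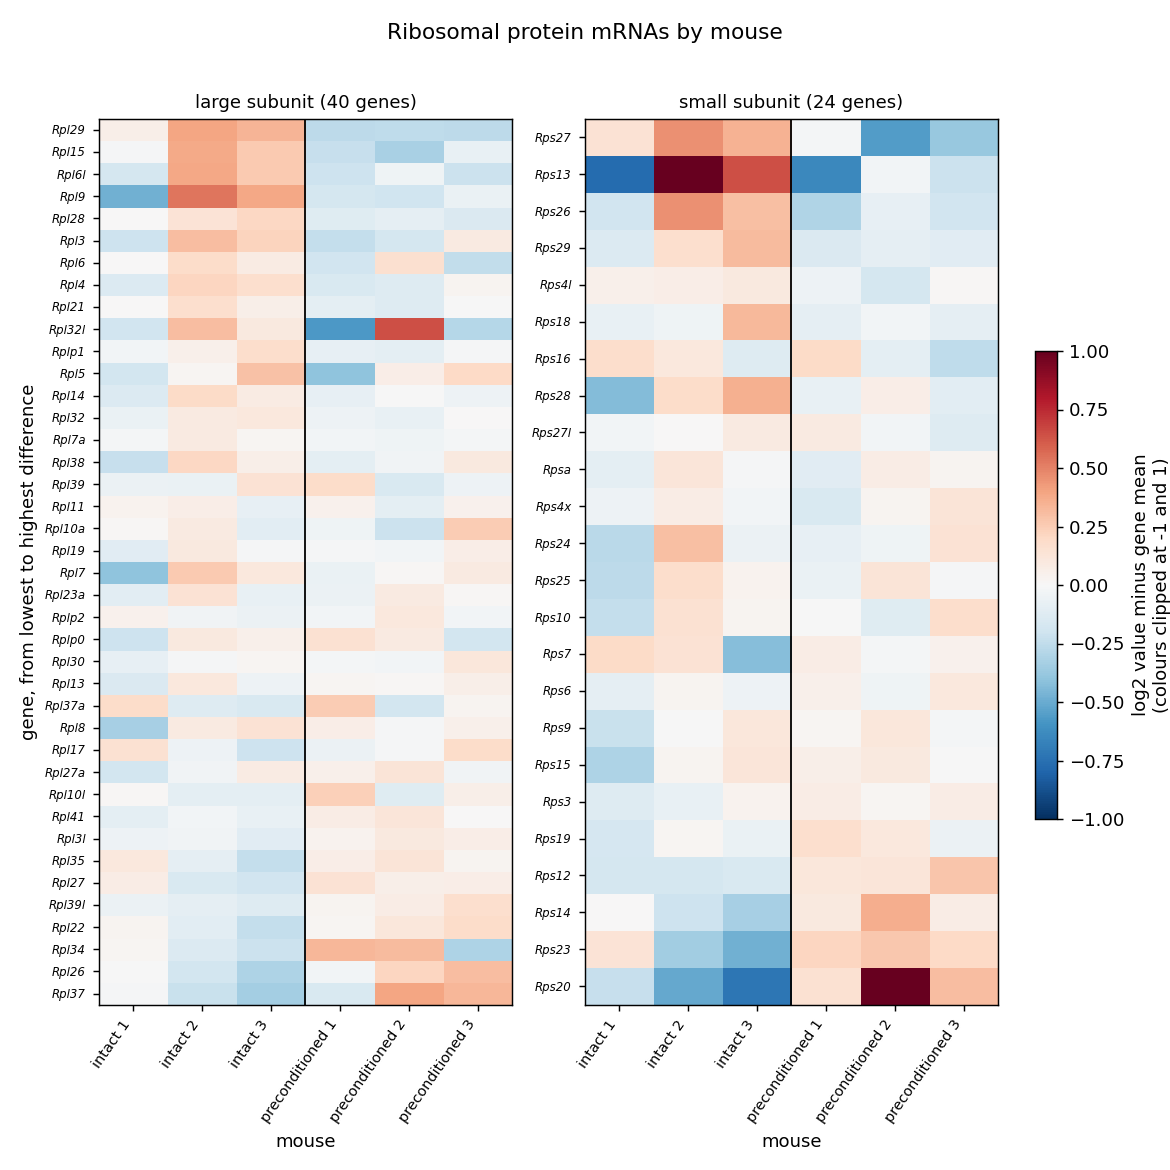
Each gene's log2 value in each mouse minus that gene's mean over the 6 mice, large subunit on the left and small subunit on the right, ordered from the lowest to the highest difference between groups; red is above and blue below the gene's mean. Intact replicate 1 is paler or bluer than intact replicates 2 and 3 for many genes at the top, and genes at both ends, such as Rpl29 and Rps20, part the groups.

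The data bound how large a difference most members could have. The 95% interval of the difference lay between -0.5 and 0.5 for 45 members, or 70.3%, against 67.4% of all genes. It lay between -1 and 1 for 62 members, and the exceptions were Rps13 (-1.53 to 0.35) and Rps20 (0.46 to 1.49). An interval that includes 0 does not show that a gene was the same in both groups.

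Taken mouse by mouse, both subunits differed more among the intact mice than between the groups. The median deviation of the large subunit genes from their own means was -0.05, 0.09 and 0.04 in intact replicates 1, 2 and 3 and -0.03, -0.01 and 0.03 in the preconditioned replicates. For the small subunit genes it was -0.13, 0.07 and 0.03 in intact mice, against 0.01, -0.00 and 0.00 in preconditioned mice. Intact replicate 1 was the lowest and intact replicate 2 the highest of the intact mice in both subunits. Intact replicate 1 held the lowest of the 6 values in 22 members (34.4%, against 12.6% of all genes), and intact replicate 2 the highest in 22 members (34.4%, against 16.4%). The median deviation of the 5 T cell markers was 0.48 in intact replicate 2 and -0.17 to 0.12 in the other mice. Cd2, Cd3e and Cd3g were brightest in intact replicate 2. Cd3d was brightest in preconditioned replicate 1 (6.20, against 5.98) and Cd5 in preconditioned replicate 3 (6.57, against 6.43). Of the 5 T cell markers 3 were lower in preconditioned lungs. Their average level spanned 6.71 to 7.27 in intact and 6.45 to 6.87 in preconditioned mice. The means over the 6 mice were 5.94 for Cd3d, 7.62 for Cd3e and 7.38 for Cd3g, beside a median of 5.95 over all genes. Whether Cd3d was above background is not known. The part of the T cell markers in the ribosomal values was not tested. Of the 4 measured B cell markers 3 were lower in preconditioned lungs, and they averaged 6.85 to 7.42 in intact and 7.00 to 7.22 in preconditioned mice.

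At an unadjusted p under 0.05 there were 5 members lower, where 11.6% of all genes stood, and 6 higher, where 7.53% did. The lower members were Rps27, Rpl29, Rpl15, Rps26 and Rpl28, and the higher ones Rpl26, Rps12, Rps14, Rpl37, Rps23 and Rps20. Intact and preconditioned values did not overlap in 7 members that were lower (background 13.0%) and 7 that were higher (background 11.7%). Both subunits contributed to each direction. Counts so near the background are no result about the ribosomal protein genes as a group.

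Among the lower members, Rpl29, a small basic protein of the large subunit, had the lowest adjusted p. It read 11.41, 11.75 and 11.69 in intact mice and 11.09, 11.10 and 11.09 in preconditioned mice, a difference of -0.52 (SE 0.11, adjusted p = 0.0860 in limma). Every preconditioned value lay below every intact value, and the preconditioned mice were almost equal. A second Rpl29 probe set, at a mean of 5.52, gave -0.12. Rps27, a zinc finger protein of the small subunit, read 6.86, 7.16 and 7.06 in intact and 6.69, 6.15 and 6.33 in preconditioned mice (-0.64, SE 0.15, adjusted p = 0.10 in limma). The groups did not overlap, with preconditioned replicate 1 nearest to the intact mice. Rpl15, of the large subunit, read 10.81, 11.20 and 11.09 against 10.59, 10.49 and 10.74 (-0.42, SE 0.13, adjusted p = 0.140 in limma), again without overlap. Rpl28 lay at 11.79, 11.92 and 12.00 against 11.67, 11.70 and 11.64 (-0.23, adjusted p = 0.218 in limma). Rps26, which lies near the exit of the mRNA channel, was at 10.00, 10.64 and 10.49 in intact and 9.88, 10.10 and 9.99 in preconditioned mice (-0.38, adjusted p = 0.259 in limma). There intact replicate 1 fell within the range of the preconditioned mice.

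Among the higher members, Rps20, a protein of the head of the small subunit, differed most. It read 5.11, 4.83 and 4.62 in intact and 5.49, 6.35 and 5.65 in preconditioned mice, a difference of 0.98 (SE 0.23, adjusted p = 0.0974 in limma). All preconditioned values lay above all intact ones, with preconditioned replicate 2 highest. This probe set was dimmer than the median of all genes (5.95), and a second one at a mean of 4.43 gave 0.15. By the gene table Rps20 also encloses a small nucleolar RNA that had no probe set of its own. Whether the Rps20 probe sets read any of that RNA is not known. Rps12, of the small subunit, was the brightest of the higher members and the most even among intact mice, at 10.64, 10.64 and 10.66 against 10.93, 10.94 and 11.09 (0.34, SE 0.09, adjusted p = 0.115 in limma). It had 8 probe sets, and their differences ran from 0.31 to 0.47. The 8 are not independent, since 6 of them held identical values. Rps23, which sits at the decoding centre, read 6.85, 6.36 and 6.23 against 6.92, 6.98 and 6.91 (0.46, adjusted p = 0.177 in limma), with intact replicate 1 close to the preconditioned mice. Rps14, the gene lost in the human 5q- syndrome, was at 5.77, 5.56 and 5.44 against 5.87, 6.13 and 5.85 (0.36, adjusted p = 0.184 in limma). The groups overlapped for Rpl37 (0.39, adjusted p = 0.246) and for Rpl26 (0.33, adjusted p = 0.206), both of the large subunit.

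**Figure D2:**
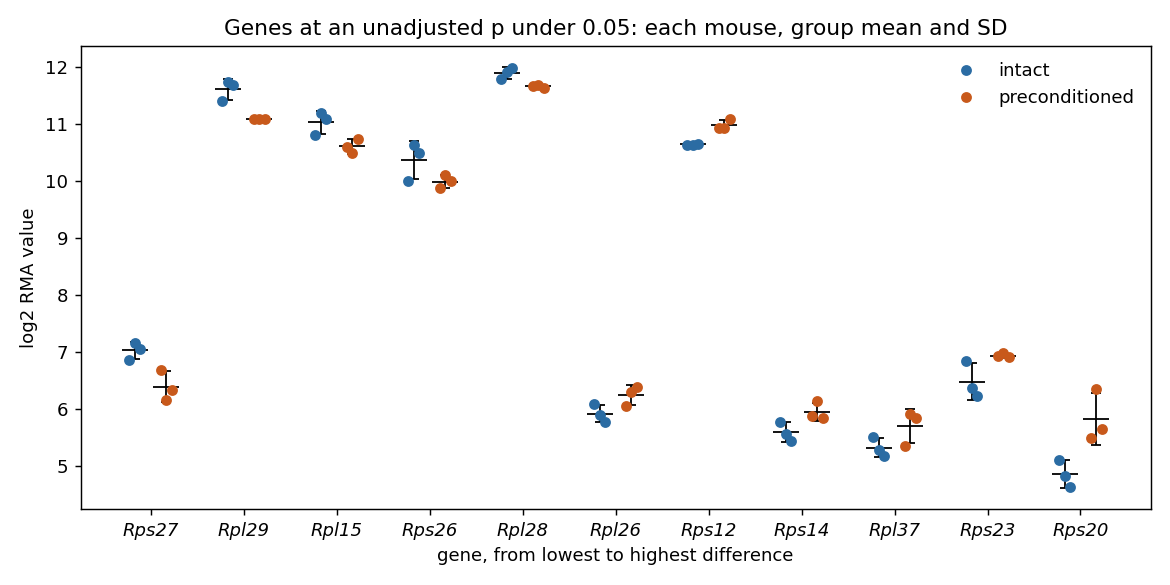
Log2 RMA values of the 11 members at an unadjusted p under 0.05, each mouse as a point, intact in blue and preconditioned in orange, with the group mean and SD in black (n = 3 per group). Rpl29 and Rps12 part the groups with little spread in one of them, while Rps26, Rpl26 and Rpl37 overlap.

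The starts of these genes were read for the pyrimidine run of a TOP element. The promoter table of RefSeq (GRCm38.p6) held 49 of the 64 members and 8 of these 11 genes; Rpl29, Rps14 and Rps20 had no entry. The printed stretches run from 15 bases before to 25 bases after the annotated start, so the first transcribed base is the 16th letter. Capitals mark the longest run of C and T that touches the window from 10 bases before to 15 after the start. The lower genes come first: Rps27 (chr3:90213624-90213663, minus strand), Rpl15 (chr14:18270962-18271001, minus), Rps26 (chr10:128626482-128626521, minus) and Rpl28 (chr7:4792950-4792989, plus). The higher genes follow: Rpl26 (chr11:68901551-68901590, plus), Rps12 (chr10:23787185-23787224, minus), Rpl37 (chr15:5116598-5116637, plus) and Rps23 (chr13:90923107-90923146, plus).
Rps27: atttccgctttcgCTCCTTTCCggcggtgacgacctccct
Rpl15: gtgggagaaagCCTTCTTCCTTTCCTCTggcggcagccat
Rps26: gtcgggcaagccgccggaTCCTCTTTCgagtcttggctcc
Rpl28: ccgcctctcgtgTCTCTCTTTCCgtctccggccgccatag
Rpl26: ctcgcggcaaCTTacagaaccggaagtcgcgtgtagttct
Rps12: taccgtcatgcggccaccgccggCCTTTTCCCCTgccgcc
Rpl37: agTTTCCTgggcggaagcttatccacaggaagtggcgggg
Rps23: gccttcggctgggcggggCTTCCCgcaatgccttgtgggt

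The 4 lower genes all carried the letters CTTTC inside the 25-base window on the transcribed strand, and the 4 higher ones did not. Motif and window were chosen after the sequences were seen, so this split was open to selection. Rps12, a higher gene without CTTTC, held a run of 11 pyrimidines, against 9 in Rps27 and Rps26. Over all members with an entry, CTTTC stood in 11 of 49 genes (22.4%), against 3.68% of 27025 genes in the table. On the opposite strand it was found in 1 member (2.04%, against 3.54%). A run of at least 8 pyrimidines touched the window in 25 members (51.0%), against 17.6% of all genes. Among members lower in preconditioned lungs 6 of 20 had CTTTC and 13 of 20 the run, and among higher members 5 of 29 and 12 of 29. The groups of 4 are too small to set against each other, annotated starts can miss the used start by some bases, and a match is a description, not a site.

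Brighter probe sets had lower differences, in all genes as well as in the ribosomal ones. Across genes, which are not independent replicates, the Spearman correlation of difference with mean level was -0.37 over all 22180 genes and -0.28 over the 64 members. These values share the same 6 arrays. Below the median of all genes, 13 of 18 members were higher with a median of 0.07, and 70.1% of all genes were higher with a median of 0.07. Above 8.47, a level that 2218 genes exceeded, the medians of members and of all genes were apart, which was not tested. There the 32 members had a median difference of 0.00, 15 lower and 17 higher, while all genes above that level had a median of -0.16 with 75.6% lower. The 2 sets were not equally bright, with a median level of 10.2 for the members and 9.06 for all genes. Preconditioned replicate 2 held the lowest of the 6 values in 49.3% of all these genes, against 18.8% of the members. The gap of 0.16 between the members' and the all-gene median lay between 0.11 and 0.21 in the other settings run for it. This comparison was added after the data were seen. Median centring, the restriction to genes above the median level, the intensity trend and the replicate block cannot change the gap. Without preconditioned replicate 2 it was 0.11, with medians of -0.01 and -0.12. The medians themselves moved with the scaling: after cyclic loess they were 0.14 for the members and -0.02 for all genes above 8.47. Without intact replicate 1 the members' median was -0.08 and 23 of the 32 were lower, beside -0.19 and 76.9% for all.

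**Figure D3:**
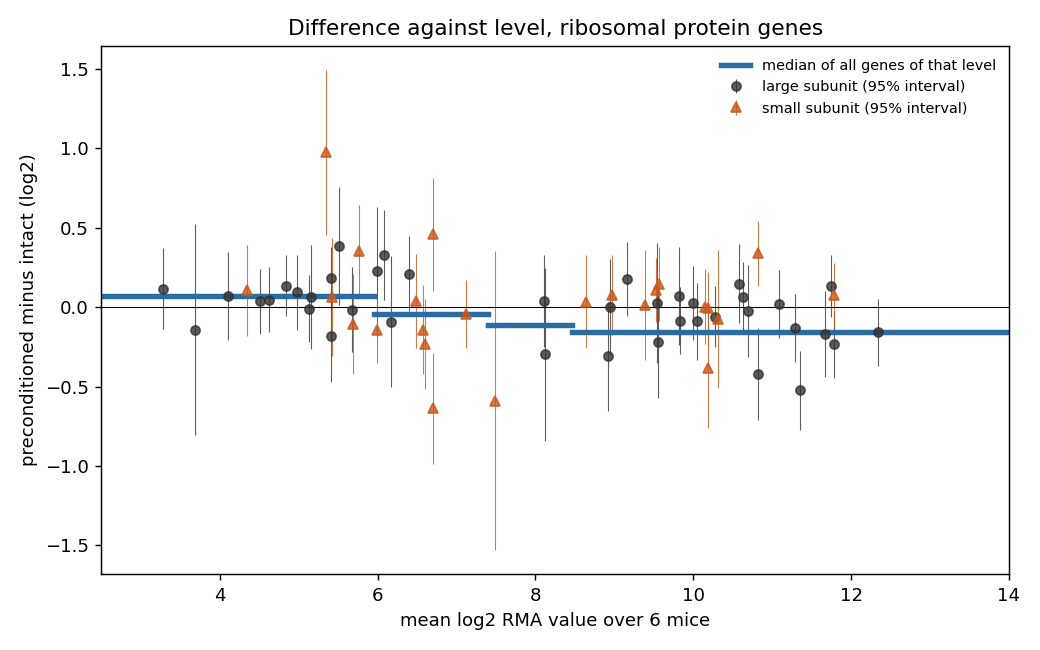
Difference between groups (preconditioned minus intact, log2) against mean log2 value for the 40 large subunit (circles) and 24 small subunit genes (triangles), with 95% intervals from limma; blue bars are medians of all genes in 4 ranges of level. In the brightest range the bar is at -0.16 while the 32 members there spread around 0.00.

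Above 8.47, 12 of 21 large subunit members were lower (median -0.06) and 8 of 11 small subunit members were higher (median 0.04). The brightest large subunit probe sets were those of Rpl21 at 12.34, Rpl28 at 11.79 and Rpl41 at 11.74, and Rpl21 was at -0.16 and Rpl41 at 0.13, both without overlap of the groups. Rps6, whose protein is the classic substrate of the S6 kinases downstream of mTORC1, was the brightest small subunit gene. It read 11.70, 11.81 and 11.74 in intact and 11.84, 11.75 and 11.90 in preconditioned mice (0.08, 95% interval -0.13 to 0.28). The values of the groups overlapped. At the dim end were Rpl10l (3.28), Rpl32l (3.68) and Rpl17 (4.11) of the large subunit and Rps15 (4.35), Rps20 (5.34) and Rps7 (5.42) of the small subunit. Spread among mice was also uneven: in 26 of the 32 bright members (81.3%) the SD was larger in intact than in preconditioned mice, against 48.8% of all genes of that brightness. The median SD was 0.14 in intact and 0.08 in preconditioned mice. Intact replicate 1 lay below both other intact mice in 28 of these 32 members (87.5%), against 60.0% of all genes of that brightness.

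Several calls depended on intact replicate 1. Without it, 7 members passed an adjusted p of 0.05 in limma (10.9%, against 5.54% of all genes): Rps13, Rpl29, Rpl9, Rps26, Rpl15 and Rpl6l lower and Rps23 higher. Rps13, a protein of the small subunit, was 6.71 in intact replicate 1, against 8.49 and 8.12 in intact replicates 2 and 3, and 6.84, 7.46 and 7.27 in preconditioned mice. Its difference was -0.59 with all mice (adjusted p = 0.466 in limma) and -1.12 without intact replicate 1. Rpl9, of the large subunit, showed the same order, at 7.64 in intact replicate 1, 8.65 and 8.50 in intact replicates 2 and 3, and 7.91 to 8.05 in preconditioned mice. With array weights, which give less weight to arrays that depart from their group, Rps27, Rpl29 and Rps20 passed (4.69% of members, against 5.07% of all genes). At an adjusted p under 0.1 in limma, Rpl29 and Rps20 passed (3.12%, against 2.89% of all genes).

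No gene of the functional sites described next passed the adjusted threshold. In the stalk that recruits translation factors, Rplp0 was at 0.04, Rplp1 at -0.13 and Rplp2 at 0.04, with p-values adjusted over all genes from 0.478 to 0.895 in limma. A second Rplp0 probe set, at a mean of 5.85, gave 0.48. Rpl5 and Rpl11, which bind 5S ribosomal RNA and can restrain Mdm2, were at -0.09 and -0.01. The probe sets of Rpl11 (mean 5.13) and Rplp2 (4.5) were dimmer than the median of all genes, and whether they read the full mRNA, a fragment or a pseudogene copy is not known from the files. Around the exit of the peptide tunnel 6 of 7 measured genes were higher: Rpl26 at 0.33, Rpl22 at 0.21, Rpl35 at 0.15, Rpl17 at 0.07, Rpl23a at 0.03 and Rpl19 at 0.02, and Rpl39 was at -0.01. Of these Rpl26 alone was at an unadjusted p under 0.05.

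From a list of 9 genes mutated in Diamond-Blackfan anaemia, a failure of red cell production, 7 were measured, 3 lower and 4 higher. The list is not complete, and other members, Rps27 and Rpl15 among them, have also been linked to the disease. Rps19, the gene most often mutated, was at 9.40, 9.59 and 9.50 in intact and 9.73, 9.68 and 9.51 in preconditioned mice (0.15, adjusted p = 0.463 in limma), and its groups overlapped. Rps24 was at 0.02, Rps10 at 0.04 and Rps7 at 0.06. Rps3, a small subunit protein with roles in DNA repair, was at 0.11, Rpsa, also known as the laminin receptor, at -0.01 and Rpl38 at -0.02.

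The 7 members with symbols ending in l, of which Rpl6l and Rps4l are pseudogenes in the gene table, had differences from -0.31 to 0.18. Rpl3l, the paralog of striated muscle, read 4.78, 4.80 and 4.72 in intact and 4.87, 4.93 and 4.90 in preconditioned mice (0.14, adjusted p = 0.406 in limma), without overlap. Its partner Rpl3 was at -0.22, with other probe sets of Rpl3 at -0.05 and 0.27. Heart muscle markers, by contrast, spanned averages of 8.52 to 9.22 in intact and 6.53 to 9.92 in preconditioned mice, and all 5 were lower on average in preconditioned lungs. The testis paralogs Rpl10l and Rpl39l were at 0.12 and 0.18, with Rpl39 at -0.01. Rps27l, a p53 target, was at -0.04 while its partner Rps27 was at -0.64. Rpl6l was at -0.31 and Rpl6 at -0.18, Rpl32l at -0.14 and Rpl32 at -0.08, and Rps4l at -0.14 and Rps4x at 0.00.

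For 24 members several probe sets carried the symbol alone, and in 11 of them the differences had opposite signs. In 17 the means of brightest and dimmest probe set lay more than 3 apart, the widest being 7.32 for Rps26. Rpl4, of the large subunit, read -0.17 on its brightest probe set, at 11.67, and 1.01 on another at 6.89. In Rpl41 5 probe sets ran from -0.08 to 0.38, and in Rps18 3 ran from -0.14 to 0.33. For Rpl9 the other probe set gave 0.08 and for Rps26 0.04. The remaining genes with both signs were Rpl3, Rpl27, Rpl35, Rpl7a, Rplp1 and Rpsa. Directions for these genes therefore hold for the probe set named here.

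All the measured small nucleolar RNAs nested in ribosomal protein genes were higher in preconditioned lungs, and 1 of 12 passed the adjusted threshold, which 0.0947% of all genes passed. By the gene table, 21 members enclose 43 such RNAs, of which 12, in 11 hosts, had a probe set of their own. Their differences ran from 0.09 to 1.84 with a median of 0.64, while 6 of the 11 hosts were lower and 5 higher (median -0.01). AF357399, inside Rps16, rose (1.84, SE 0.23, adjusted p = 0.0423 in limma), from 4.27, 3.74 and 4.04 to 5.37, 6.27 and 5.92, while Rps16 was at -0.10. AF357399 was dim, with a mean of 4.93 below the median of all genes (5.95), and whether it was above background is not known. The call was lost, with differences from 1.63 to 1.85, without intact replicate 2 (adjusted p = 0.211 in limma), intact replicate 3 (0.187), preconditioned replicate 2 (0.113) or preconditioned replicate 3 (0.219), and with the replicate number as a block (0.180). Adjusted over all 41345 probe sets, named or not, a check added after the data were seen, it had an adjusted p of 0.0776 in limma. The number of nested RNAs past the threshold moved from 0 in those leave-one-out fits to 6 without intact replicate 1, where 5.54% of all genes passed, and was 7 with array weights, where 5.07% did. Snora69 was at 1.43 and its host Rpl39 at -0.01. Snord15a was at 1.13 with Rps3 at 0.11, Snora7a at 0.94 with Rpl32 at -0.08, and Snord16a at 0.73 with Rpl4 at -0.17. For Snora33, inside Rps12 (0.34), the probe sets disagreed in size: the brighter, at a mean of 13.19, gave 0.14 and the other, at 6.78, gave 1.93. Their mean was 1.03 (adjusted p = 0.0348 in limma). Of the 12 RNAs 9 were higher without overlap between the groups, beside 11.7% of all genes. Snora62 turned to -0.02 without intact replicate 2 and to -0.03 without intact replicate 3, and Snord43 to -0.08 without preconditioned replicate 2. The difference between host and nested RNA was not tested.

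**Figure D4:**
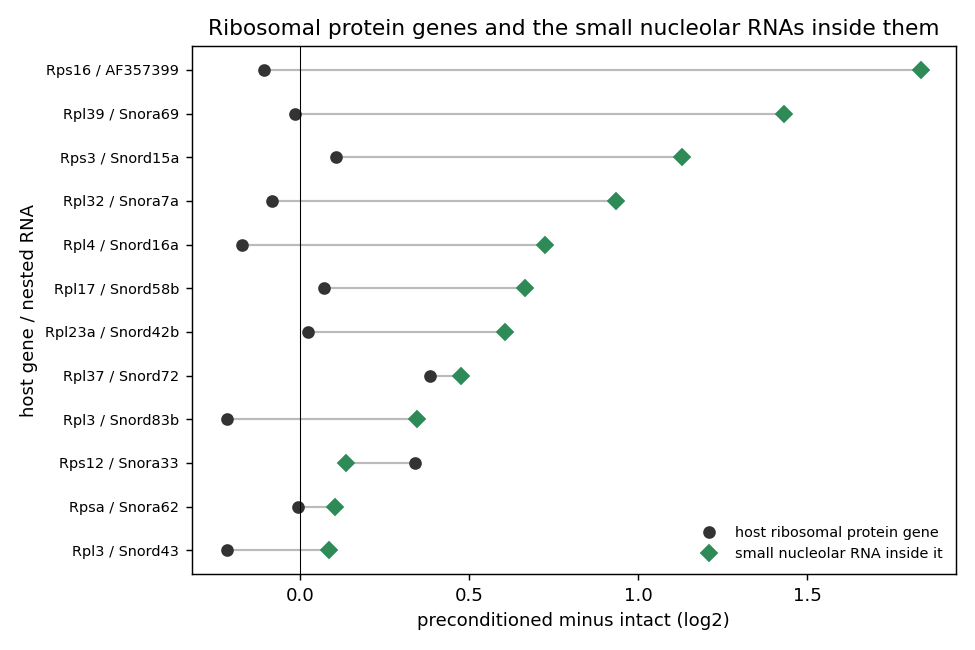
Difference between groups (preconditioned minus intact, log2) for 12 small nucleolar RNAs (green diamonds) and the ribosomal protein gene that encloses each (black circles), joined by a line. Snora33 is shown by its brighter probe set. The RNAs lie between 0.09 and 1.84 and the hosts between -0.22 and 0.39.

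Among other genes of the ribosome pathway none passed an adjusted p of 0.05 in limma. For comparison, 47.3% of all genes were lower, and brighter genes more often. The share was 57.5% for all genes at levels from 5.95 to 7.40 (median -0.04). Above 8.47 it was 75.6% (median -0.16). Of 40 measured ribosome assembly factors 32 were lower and 8 higher (median -0.14), 10 and 1 of them at an unadjusted p under 0.05, where 11.6% and 7.53% of all genes stood. Nop56, a core protein of box C/D particles, was at 2.27, Nop2, an rRNA methyltransferase, at -0.39 and Urb2 at -0.52 (adjusted p from 0.0610 to 0.141). Genes of RNA polymerase I and its factors had a median of -0.06 over 15, with Znrd1, a polymerase subunit, at -0.84 and Tbp, the TATA-binding protein, at -0.48. The 71 mitochondrial ribosomal proteins, a separate family, had 48 lower and 23 higher (median -0.10), among them Mrpl49 at -0.67 and Mrpl34 at -0.38. Initiation factors, at a median level of 8.93, were lower in 17 of 23 (median -0.07), with the eIF3 subunits Eif3l at -0.31 and Eif3d at -0.29.

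Of the elongation factors and other TOP mRNAs 8 of 12 were higher (median 0.05). Eef2, which moves the ribosome along the mRNA, was at 0.17, Btf3 at 0.21 and the poly(A)-binding protein gene Pabpc1 at -0.29. In the list of mTORC1 and TOP regulators 11 of 18 were lower (median -0.10). Eif4ebp2, a repressor of cap-dependent initiation, was at 0.43, Tsc2, an inhibitor of mTORC1, at -0.36, and Larp4, an RNA-binding protein, at -0.43 (adjusted p = 0.0965, 0.0987 and 0.119 in limma). Of the accessory list 3 of 7 were measured: Fau, which encodes a fusion with a small subunit protein, was at 0.13, Rpl22l1 at -0.15 and Rpl7l1 at -0.65.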

How the data were processed

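The deposited values are log2 values that the authors made with RMA, per the submitters' processing notes, which also name limma; RMA subtracts background, quantile-normalizes arrays and summarizes probes, so a change shared by most genes is not visible. The sources used here do not give their versions, filters or a build. Of 41345 probe sets, 25335 were in the annotation table, 23521 with 1 symbol and 1814 with several, which were not named. The brightest probe set by mean over 6 arrays stood for a gene. All 22180 genes were fitted with limma 3.58.1 (R 4.3.3; lmFit, eBayes without trend, no covariate, no filter), preconditioned minus intact, adjusted by Benjamini-Hochberg over all genes, threshold 0.05. The fit was tested on simulated data. Arrays have no read depth; 3 per group limit the precision. Same-numbered arrays did not deviate together (correlations -0.06, -0.31 and -0.06), so numbers were not treated as pairs. Members, lists and the gene rule were chosen with earlier results of these data known, and the sequence window and motif after the sequences were seen. Named genes were those at the ends of each subunit by moderated t or level, the role lists, paralogs and genes with discordant probe sets. Alternatives were other probe set rules, normalizations, filters, priors, weights, thresholds, a replicate block and leaving out each array. Sequences came from RefSeq (GRCm38.p6). Figures used matplotlib 3.10.9.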

Additional observations from a re-analysis of the deposited data

How the results depend on the processing

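The count of members past an adjusted p of 0.05 in limma was 0 with all arrays (11 at an unadjusted p under 0.05) and ranged from 0 to 7 when 1 array was left out, 7 without intact replicate 1 and 0 in the other 5 fits. It was 3 with array weights and 2 at an adjusted p under 0.1, and 0 under the other alternatives. The unadjusted count ranged from 5 to 21 when 1 array was left out, with 21 without intact replicate 1 and 5 without intact replicate 2 or 3. Without intact replicate 1, 15.2% of all genes were lower and 9.54% higher at that unadjusted p. These shares were 7.57% and 4.58% without intact replicate 2, and 7.43% and 4.29% without intact replicate 3. The unadjusted count was 22 of 104 over every probe set, where 11.2% of the 23521 tested were lower and 7.88% higher. With array weights it was 18 of 64, where 14.96% of all genes were lower and 10.68% higher. Among the genes above the median level, where fewer genes are tested, it was 7 of 46. Of all genes above that level, 19.2% were lower and 5.21% higher at that unadjusted p. For the large subunit, the median of 0.02 ranged from -0.038 to 0.050 over these leave-one-out fits and was -0.038 without intact replicate 1; for the small subunit, the median of 0.03 ranged from -0.050 to 0.096. Both medians were also below 0 after median centring (-0.026 and -0.024), so neither subunit has a settled direction. With the replicate block the counts were 0 past the adjusted and 10 at the unadjusted threshold, where 10.4% of all genes were lower and 6.21% higher. In that fit AF357399 (1.84) had an adjusted p of 0.180 in limma. The cause of these shifts was not tested. The deposited values carry no background estimate, so no filter on it could be set, and whether dim members such as Rps20 are above background is not known.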

Other observations

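Probe sets that name a ribosomal protein gene together with other symbols were not used under a gene name. There were 57 of them, with 32 ribosomal protein symbols among their labels. Fitted in limma over all probe sets, 26 were lower and 31 higher in preconditioned lungs (median 0.01, range -0.87 to 2.16), 6 and 17 of them at an unadjusted p under 0.05 and 1 at an adjusted p under 0.05. Of all 41345 probe sets, 9.21% were lower and 8.44% higher at that unadjusted p, and 0.0290% passed the adjusted one. Of the thymus markers 4 of 5 were measured, averaging 4.98 to 5.15 in intact and 5.17 to 5.19 in preconditioned mice.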
